A study of Mus musculus with 4 samples.

Results

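Histone cluster genes were followed through single regulatory T (Treg) cells of the mouse. Every gene whose symbol starts with Hist1h, Hist2h, Hist3h or Hist4h was taken, which gave 67 of the 22056 genes in both expression tables. They comprise 6 linker histone H1 genes, 18 H2A, 18 H2B, 12 H3 and 13 H4 genes. By the GENCODE annotation of GRCm38, 54 lie on chromosome 13, 10 on chromosome 3, 2 on chromosome 11 and 1 on chromosome 6. Core histones H2A, H2B, H3 and H4 form the protein spool around which DNA is wound, and H1 binds where the DNA enters and leaves it. Most of these genes are transcribed while DNA is replicated, so that new chromatin can be packed. Their mRNAs are unusual in ending at a short stem-loop, bound by the protein SLBP, in place of a poly(A) tail. Some copies also give transcripts that run on past the stem-loop and carry a poly(A) tail. The 3′ libraries used here prime on poly(A), so a level of such a gene is the level of transcripts that this priming captures, and a sum or share over several genes is one of captured UMIs, not of transcripts made.

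The cells were live CD4+ TCRβ+ YFP+ T cells of C57BL/6 mice, sorted at more than 95% purity. ICOS is a costimulatory receptor of activated T cells, and the design sets ICOS-deficient Treg cells, titled ICOS FC, against ICOS WT ones at steady state and in inflammation. There were 4 groups of 1 library each, namely cervical draining lymph node (LN) cells taken 1 day after oxazolone challenge from ICOS FC mice (LN FC), the same cells from ICOS WT mice (LN WT), spleen cells at steady state from ICOS FC mice (spleen FC), and spleen cells at steady state from ICOS WT mice (spleen WT). Oxazolone is a hapten that inflames the skin. LN and spleen differ both in tissue and in challenge, which cannot be told apart. Neither the number of animals pooled nor what drives YFP or removes ICOS is given in the sources used here.

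LN FC held 2066 cells and 17330489 UMIs (molecular tags that count captured transcripts), LN WT 1897 cells and 15045805, spleen FC 5917 cells and 28256866, and spleen WT 4995 cells and 27183614. Levels are UMIs per 1000000 UMIs (CPM) summed over cells. A count of 0 allows up to 0.173 CPM in LN FC, 0.199 in LN WT, 0.106 in spleen FC and 0.110 in spleen WT, taking 3 counts as the limit. With 1 library per group no difference between genotypes or tissues has a replicate check, and every interval given for one covers counting error only. Foxp3, the factor that defines Treg cells, was at 70.7, 72.2, 59.0 and 53.2 CPM in LN FC, LN WT, spleen FC and spleen WT. Icos transcripts were at 928 CPM in LN FC against 599 CPM in LN WT, and at 258 CPM in spleen FC against 112 CPM in spleen WT. The transcript was thus not lower under the label ICOS FC. Which part of the gene is altered is not given, so a 3′ count does not check the label, and every direction between ICOS FC and ICOS WT below rests on the labels.

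The LN libraries shared 30 cell barcodes and the spleen libraries 8, while a library of the LN and a library of the spleen shared 1 to 10. In 27 of the 30 LN pairs the copy in 1 library had at least 10 times the UMIs of the copy in the other, 21 times with the larger copy in LN FC and 6 times with it in LN WT. In those 27 pairs the smaller copy held 2.21% to 2.96% of the UMIs of the larger. The 30 cells in LN FC held 12.6% of that library's UMIs of histone cluster genes and the 30 cells in LN WT held 2.76%. The phase sums, the counts of called members, the comparison of LN FC with LN WT, the sums between tissues and the sums in cells with a UMI of both Mki67 and Top2a are also given without these cells, and the other LN values are not.

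In all, 22 members reached 5 CPM in at least 1 library, 24 reached 1 CPM but not 5, and 15 stayed under 1 CPM with more than 3 UMIs in a library. Another 2, Hist1h2ah and Hist2h2aa2, had at most 2 UMIs in any library. No UMI was counted for Hist1h1t and Hist1h2ba, the testis forms of H1 and H2B, nor for Hist1h2aa and Hist1h2bq. Summed over the 67 members, the level was 638 CPM in LN FC (11056 UMIs), 419 CPM in LN WT (6297 UMIs), 252 CPM in spleen FC (7125 UMIs) and 239 CPM in spleen WT (6486 UMIs).

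Many members are near-identical copies. All 13 H4 genes encode 1 identical protein, and identical proteins are also shared by 9 H2A genes, by groups of 8 and 4 H3 genes and by groups of 6 and 3 H2B genes. What a 3′ read can tell apart is the transcript end. Over the last 300 bases of its model, every 50-base window of Hist1h3e also occurs in Hist1h3f, and the same holds of Hist1h1e with a read-through transcript of Hist1h2be. All windows of Hist1h2ap and Hist2h2aa1 occur in other H2A genes. The same holds of all windows of Hist2h2aa2 and 98.0% of those of Hist1h2ah. All windows of Hist1h2bq, which had no UMI, occur in other H2B genes. Levels of those genes are uncertain, since reads may have been split or dropped between copies. Hist1h1b, Hist1h1c, Hist1h1d, Hist1h4d, Hist1h4i, Hist1h4c, Hist3h2a, Hist3h2ba and Hist1h2bc shared none of these windows with another member.

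The stem-loops are shown because they mark where the replication-type transcript ends, and the bases annotated beyond them differ between members. Each line gives 5 bases on either side in lower case and the 16-base stem-loop in capitals, on the gene's own strand, from the GENCODE transcripts.
Hist1h2ae: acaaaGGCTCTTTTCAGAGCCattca
Hist3h2a: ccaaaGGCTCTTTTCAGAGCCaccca
Hist1h4d: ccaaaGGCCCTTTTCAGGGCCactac
Hist1h3c: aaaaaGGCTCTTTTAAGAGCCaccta
Hist1h4i: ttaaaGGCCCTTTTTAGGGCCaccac
Hist2h2ac: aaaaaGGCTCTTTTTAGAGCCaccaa
Hist1h4b: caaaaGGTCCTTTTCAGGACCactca

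A search for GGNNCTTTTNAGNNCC found the motif at the end of 44 members. The form of Hist1h2ae and Hist3h2a was carried by 26 members, that of Hist1h4d by 7 H4 genes, that of Hist1h3c by 6, those of Hist1h4i and Hist1h4b by 2 each, and that of Hist2h2ac by 1. In 22 members the longest model stopped within 100 bases of the motif, and in 22 it ran further, by 151 bases in Hist1h2ae, 770 in Hist1h4d and 1643 in Hist3h2a. A further 15 models, Hist1h1b among them, ended at the stop codon, and 8 had a 3′ untranslated region without the motif, among them Hist1h2bc.

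The deposited cell tables give each cell a cell cycle phase. All 14875 calls followed from the deposited S and G2M scores by 1 rule, G1 where both scores were below 0 and otherwise the higher of them. No histone cluster gene is in the usual S and G2M gene lists, and scores rebuilt from those lists had r = 0.991 to 0.998 with the deposited ones across the cells of a tissue. G1, S and G2M held 1586, 393 and 87 cells of LN FC, 1500, 327 and 70 of LN WT, 3411, 2052 and 454 of spleen FC, and 2961, 1716 and 318 of spleen WT. A phase is a range of a score, not a cell type. Of the G2M cells, 25.3% in LN FC and 18.6% in LN WT had a highest score within 0.02 of the cut, against 41.9% in spleen FC and 46.9% in spleen WT. A score above 0.1 was reached by 60.9% and 52.9% of G2M cells in LN FC and LN WT, and by 3.30% and 3.77% in spleen FC and spleen WT.

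In G1, S and G2M cells the summed members were at 208, 653 and 4309 CPM in LN FC, at 232, 507 and 3217 CPM in LN WT, at 233, 237 and 498 CPM in spleen FC, and at 224, 244 and 362 CPM in spleen WT. All 4 libraries stood close together in G1 cells and apart in G2M cells. Without shared barcodes the sums were 208, 595 and 4094 CPM in LN FC and 233, 505 and 3231 CPM in LN WT. The 87 G2M cells of LN FC held 7.49% of its UMIs and 50.6% of its histone cluster UMIs, and the 70 of LN WT held 4.02% and 30.9%. In spleen FC the G2M cells held 6.78% of all UMIs and 13.4% of member UMIs, and in spleen WT 5.61% and 8.51%.

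**Figure D1:**
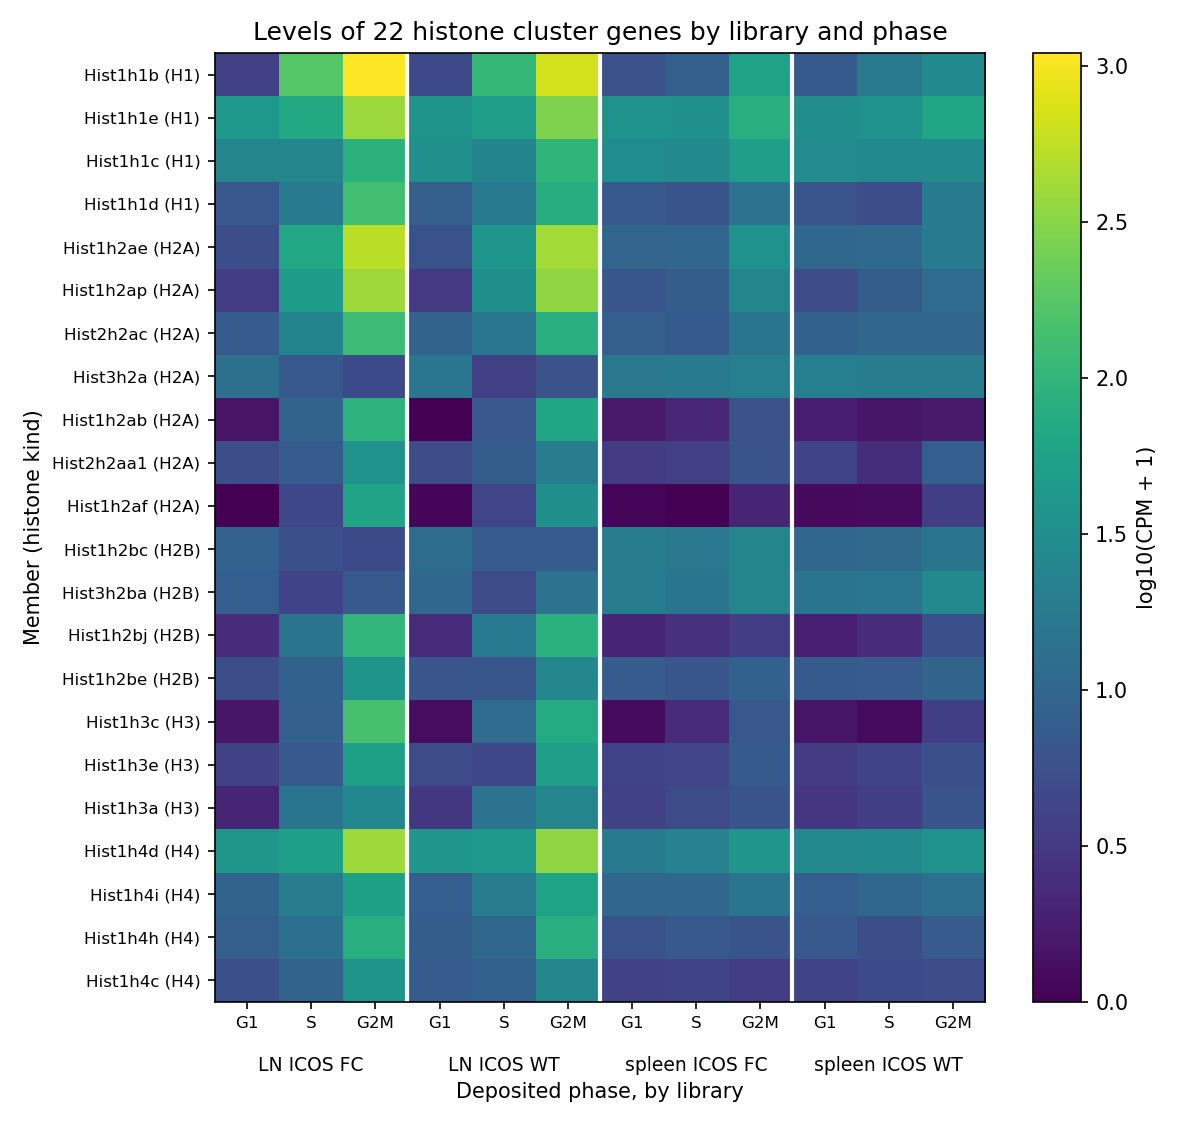
Levels of the 22 members that reached 5 CPM, as log10(CPM + 1) in colour, by library and by deposited phase; rows are ordered by histone kind. In both LN libraries most rows brighten through S to G2M, while Hist3h2a, Hist1h2bc and Hist3h2ba do not, and the spleen columns vary less.

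Among the linker histones, Hist1h1b, which encodes the replication-dependent H1.5, moved most. It was at 2.76, 172 and 1103 CPM in G1, S and G2M cells of LN FC and at 3.70, 105 and 691 CPM in those of LN WT. In the spleen it was at 4.67, 7.61 and 55.3 CPM in spleen FC and at 6.23, 15.9 and 27.5 CPM in spleen WT. Hist1h1e, which encodes H1.4, was at 40.9, 69.6 and 382 CPM across G1, S and G2M in LN FC and at 36.1, 49.6 and 283 CPM in LN WT. Hist1h1c, which encodes H1.2, was at 23.1, 23.3 and 89.4 CPM in LN FC and at 32.8, 22.9 and 97.6 CPM in LN WT, with S close to G1 or below it. Hist1h1d, which encodes H1.3, was at 5.70, 17.1 and 131 CPM in LN FC and at 7.31, 16.2 and 77.7 CPM in LN WT. The makeup of H1 UMIs thus differed by phase. Hist1h1b made up 3.78%, 59.1% and 63.7% of H1 UMIs in G1, S and G2M cells of LN FC, and 4.58%, 51.9% and 59.0% in those of LN WT, against 6.04% to 27.0% in spleen FC and 8.67% to 20.4% in spleen WT. Without shared barcodes it was at 2.77, 142 and 1002 CPM in G1, S and G2M cells of LN FC and at 3.71, 104 and 687 CPM in those of LN WT. Its share of H1 UMIs was then 55.4% and 62.2% in S and G2M cells of LN FC, and 51.3% and 59.4% in those of LN WT.

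H2A genes of the chromosome 13 cluster followed the same order. Hist1h2ae was at 4.45, 63.7 and 538 CPM in G1, S and G2M cells of LN FC and at 4.81, 38.3 and 412 CPM in LN WT, and Hist1h2ap at 2.58, 46.2 and 397 CPM in LN FC and at 2.22, 31.9 and 344 CPM in LN WT. In spleen G2M cells, Hist1h2ae was at 35.0 CPM in spleen FC and 17.7 CPM in spleen WT, and Hist1h2ap at 24 and 10.5 CPM. Hist1h2ab was at 0.445, 8.54 and 92.5 CPM across the phases in LN FC, and in LN WT it had no UMI in G1 cells and 5.78 and 62.8 CPM in S and G2M. Hist1h2af had no UMI in G1 cells of LN FC and was at 59.3 CPM in its G2M cells, while LN WT had 0.0925 CPM in G1 and 31.4 CPM in G2M cells. Hist2h2ac, an H2A gene of the chromosome 3 cluster, was at 6.77, 22.9 and 122 CPM in LN FC and at 8.42, 14.9 and 82.7 CPM in LN WT.

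H3 and H2B members also differed by phase. Hist1h3c was at 0.534, 7.5 and 142 CPM in G1, S and G2M of LN FC and at 0.278, 10.7 and 74.4 CPM in LN WT. Hist1h2bj was at 1.42, 13.7 and 101 CPM in LN FC and at 1.30, 17.6 and 86.0 CPM in LN WT. Hist1h3a had a smaller gap between S and G2M, with 1.07, 14.4 and 25.4 CPM in LN FC and 2.13, 13.5 and 23.2 CPM in LN WT. Hist1h3e was at 3.03, 6.04 and 53.2 CPM in LN FC and at 4.16, 3.58 and 48.0 CPM in LN WT. Among H4 genes, Hist1h4d was at 39.8, 51.4 and 396 CPM in LN FC and at 38.4, 40.8 and 346 CPM in LN WT, so that most of its excess was in G2M cells. Hist1h4i was at 8.64, 18.5 and 52.4 CPM in LN FC and at 7.12, 18.2 and 57.9 CPM in LN WT, and Hist1h4h was at 80.2 and 82.7 CPM in G2M cells of LN FC and LN WT against 7.30 and 6.85 CPM in G1 cells.

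A few members went the other way or stayed level in the LN. Hist3h2a, an H2A gene outside the large clusters, was at 12.4, 5.83 and 3.85 CPM in G1, S and G2M of LN FC and at 14.6, 2.75 and 4.96 CPM in LN WT, while in the spleen it was between 15.5 and 19.5 CPM in every phase. Those LN G2M values rest on 5 and 3 UMIs. Hist1h2bc was at 8.10, 4.58 and 3.85 CPM in LN FC and at 10.9, 6.61 and 6.62 CPM in LN WT, its G2M values resting on 5 and 4 UMIs. Hist3h2ba, an H2B gene next to Hist3h2a, was at 7.12, 3.12 and 6.17 CPM in LN FC and at 9.81, 4.13 and 13.2 CPM in LN WT. Hist1h2be encodes the same H2B protein as Hist1h2bc, yet was at 36.2 and 24.8 CPM in G2M cells of LN FC and LN WT against 4.45 and 5.27 CPM in G1 cells.

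Phase differences were tested with limma on the 12 sums of library and phase, with the library as a block, across the 9776 genes with a mean of at least 2 CPM. Nothing in the labels gives the libraries as separate animals of 1 group. The block removes differences in level between libraries. These p-values therefore measure the spread of the phase difference between libraries, which differ in label and in tissue. Of the 67 members, 37 passed that filter and 30 did not. Members that passed it only through high LN G2M sums had to differ, so their counts describe those genes and are not support for the group. With 1 phase effect for all 4 libraries, 20 of the 37 were higher in G2M than in G1 at a Benjamini-Hochberg adjusted p under 0.05 and 0 were lower, against 4.76% of all genes higher and 1.05% lower. The count fell to 0 without LN FC and to 0 without LN WT. For S against G1 limma called 0 of the 37, with 6 at an unadjusted p under 0.05 and 3 called with voom weights, and it called 0.215% of all genes higher.

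A fit with separate phase effects for the 2 tissues was added after the levels had been seen. In the LN, 33 members were higher in G2M than in G1 and 2 lower, against 22.9% of all genes higher and 20.9% lower. Among the 21 members with a mean of at least 2 CPM over the G1 sums, which is a filter blind to G2M, 17 were higher and 2 lower. The limma difference was 7.70 ± 0.38 for Hist1h1b (adjusted p = 1.2e-07), 3.07 ± 0.12 for Hist1h1e (adjusted p = 3.7e-08) and 1.72 ± 0.20 for Hist1h1c (adjusted p = 5.9e-05), each a log2 difference of CPM + 1 with its SE. Those called lower were Hist3h2a at -1.43 ± 0.28 (adjusted p = 0.0023) and Hist1h2bc at -0.78 ± 0.21 (adjusted p = 0.012). Both rest on 3 to 5 UMIs in each LN G2M sum. Hist3h2ba at 0.11 ± 0.24 and Hist4h4 at 0.24 ± 0.45 were not called, with adjusted p of 0.74 and 0.70. Called members under 5 CPM in every library were Hist1h1a, Hist1h2ac, Hist1h2ag, Hist1h2ak, Hist1h2an, Hist1h2bb, Hist1h2bh, Hist1h2bm, Hist1h2bn, Hist1h3f, Hist1h3i, Hist1h4b, Hist2h2bb and Hist2h4, with differences of 1.60 to 4.75. In S cells of the LN, 22 members were higher than in G1 and 3 lower, against 18.6% and 11.8% of all genes. Among the 21 members with a mean of at least 2 CPM over the G1 sums, 8 were higher and 3 lower, and without shared barcodes 20 were higher and 3 lower. The 3 were Hist3h2a at -1.51 ± 0.28, Hist3h2ba at -1.03 ± 0.24 and Hist1h2bc at -0.68 ± 0.21. With each cell thinned to 2000 UMIs, limma called 19 of 36 tested members higher and 1 lower in G2M than in G1. Of 9747 genes, it then called 779 higher and 789 lower. In thinned S cells it called 1 member higher, against 88 genes higher and 10 lower.

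In the spleen, limma called 7 members higher in G2M than in G1 and 0 lower, against 2.66% and 0.869% of all genes. They were Hist1h1b at 2.65 ± 0.38, Hist1h3c at 1.86 ± 0.40, Hist1h2ap at 1.54 ± 0.24, Hist1h2ae at 1.33 ± 0.26, Hist1h1d at 1.28 ± 0.26, Hist1h1e at 1.09 ± 0.12 and Hist1h4d at 0.76 ± 0.16. This count was 0 without spleen FC, 3 without spleen WT, 0 with cells thinned to 2000 UMIs, 0 in cells with a Foxp3 UMI, 1 on cell means and 16 with voom weights. In S cells 0 of 37 members were called, 1 had an unadjusted p under 0.05 and 1 was called with voom weights, against 0.327% of all genes called higher. The difference between tissues was tested itself, with the ICOS FC and ICOS WT libraries of each tissue taken as its 2 libraries. No tissue has 2 libraries of 1 label, so differences between the labels serve as the error of this test. The step from G1 to G2M was larger in the LN for 33 members and smaller for 2, Hist3h2a and Hist1h2bc, against 13.9% and 16.5% of all genes. Of the 21 members with a mean of at least 2 CPM over the G1 sums, 17 had a larger step in the LN and 2 a smaller one. With cells thinned to 2000 UMIs the counts were 8 and 1 of 36 tested members, against 177 and 225 of 9747 genes. In cells with a Foxp3 UMI they were 25 and 0 of 39, against 697 and 787 of 9773 genes. Without shared barcodes they were 32 and 2. For the step from G1 to S the counts were 12 and 1, against 8.73% and 4.27%, and the 1 was Hist3h2a. Of those 21 members, 6 had a larger step to S in the LN and 1 a smaller one. Leaving out spleen FC gave S counts of 3 and 0, as did leaving out spleen WT, while thinned cells and cells with a Foxp3 UMI each gave 0 and 0 and shared barcodes left out gave 11 and 0.

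**Figure D2:**
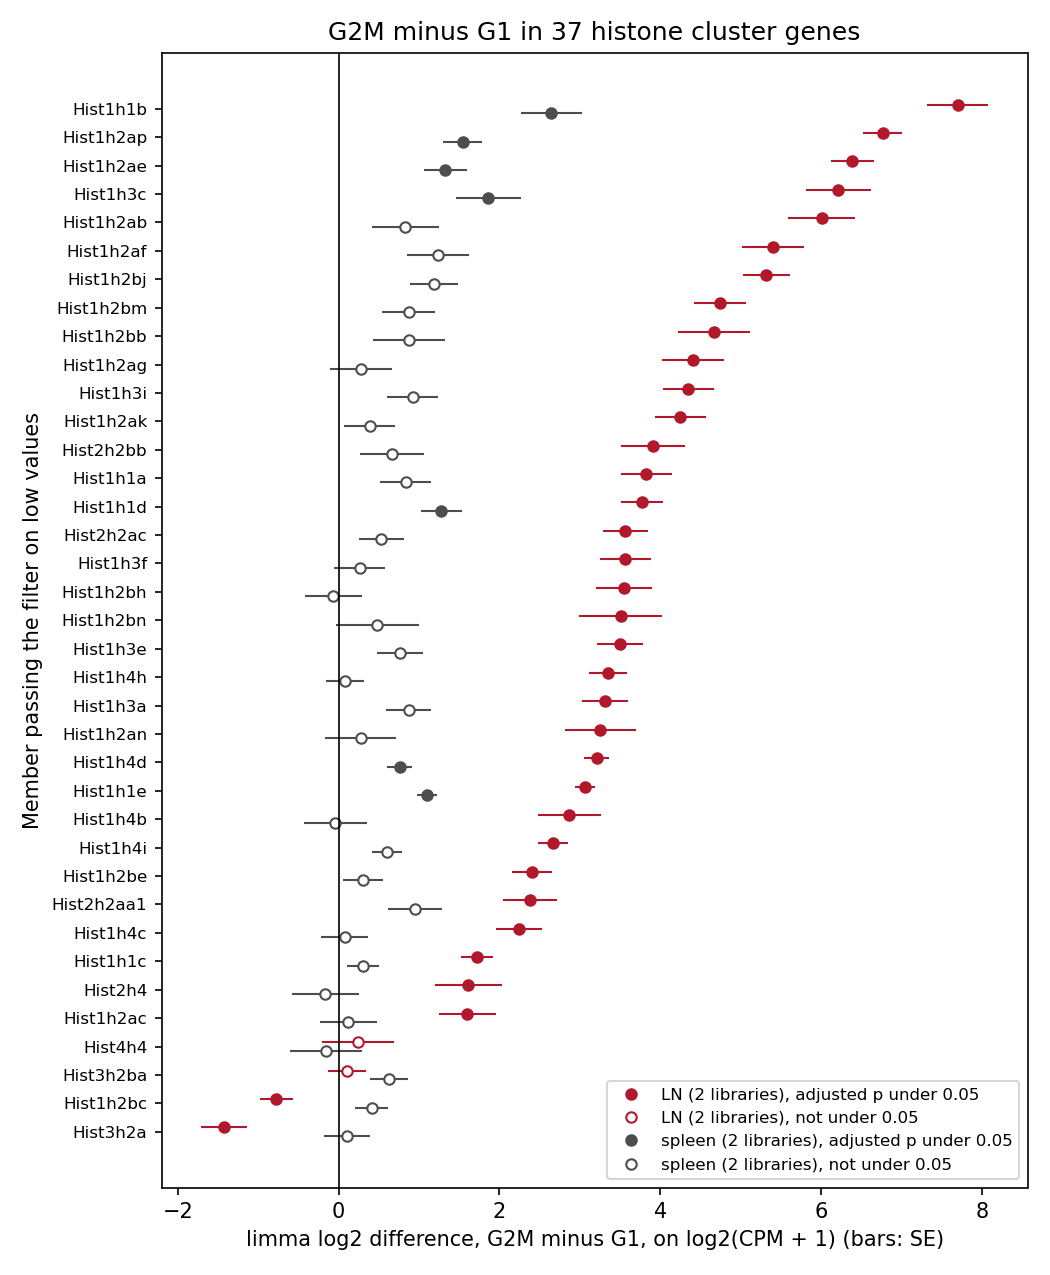
limma log2 difference of G2M minus G1 on log2(CPM + 1), with SE bars, for the 37 members that passed the filter on low values, in the LN (red) and the spleen (grey). Filled points have an adjusted p under 0.05; 33 LN points are filled above 0 and 2 below, and 7 spleen points are filled above 0.

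Several measured properties moved with these phase differences. G2M cells had a median of 9326 UMIs in LN FC and 3958 in LN WT, against 6581 and 6590.5 in G1 cells. Of the G2M cells, 18 in LN FC and 24 in LN WT belonged to LN cluster 6, where cells had a median of 1787.5 and 2022 UMIs, and the smaller copies of shared barcodes made up 4 and 5 of them. Without cluster 6 the LN counts were again 33 higher and 2 lower, without shared barcodes 33 and 2, and without their smaller copies 33 and 2. Markers of CD8 T and NK cells summed to 89.4 and 122 CPM in G2M cells of LN FC and LN WT against 29.0 and 43.2 CPM in G1 cells. Foxp3 was at 31.6 and 48.0 CPM in G2M cells of LN FC and LN WT against 85.7 and 80.1 CPM in G1 cells. Among cells with a Foxp3 UMI alone, limma called 34 of 39 tested members higher in G2M than in G1 in the LN and 0 lower. Of 9773 genes, it called 1279 higher and 1433 lower in those cells. The part of the other cell types' markers in the result was not tested.

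Because the phase call in the spleen rests on scores near 0, members were also described in cells with at least 1 UMI of both Mki67 and Top2a, a proliferation antigen and a DNA topoisomerase of dividing cells. This split was chosen after the data had been seen. Such cells numbered 126 (6.10%) in LN FC, 104 (5.48%) in LN WT, 30 (0.507%) in spleen FC and 18 (0.360%) in spleen WT. They included 56.3% and 37.1% of the G2M cells of LN FC and LN WT, and 2.20% and 0.943% of those of spleen FC and spleen WT. Summed members were at 2762, 1622, 1270 and 1266 CPM in these cells of LN FC, LN WT, spleen FC and spleen WT, and at 208, 232, 233 and 229 CPM in cells with neither UMI. As log2 ratios of cells with both to cells with neither these are 3.73 [3.67, 3.80], 2.81 [2.73, 2.88], 2.45 [2.32, 2.57] and 2.47 [2.28, 2.65], and the 2 spleen libraries stood together. Without shared barcodes the summed members were at 2656, 1656, 1419 and 1270 CPM in cells with both UMIs. Hist1h1b was at 755, 377, 292 and 382 CPM in cells with both UMIs of LN FC, LN WT, spleen FC and spleen WT, against 3.34, 4.70, 3.77 and 6.84 CPM in cells with neither. Hist3h2a was at 4.19 and 0.497 CPM in cells with both UMIs of LN FC and LN WT, against 11.7 and 14.2 CPM in cells with neither, and at 21.97 and 0 CPM in those of spleen FC and spleen WT against 16.7 and 19.8 CPM. Its values in cells with both UMIs rest on 12, 1, 10 and 0 UMIs in LN FC, LN WT, spleen FC and spleen WT. Cells with both UMIs were also deeper, with medians of 20077, 17841.5, 12032 and 10156 UMIs against 6443.5, 6329, 4322.5 and 5001 in cells with neither, and a deeper cell is likelier to show a UMI of a gene it expresses.

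**Figure D3:**
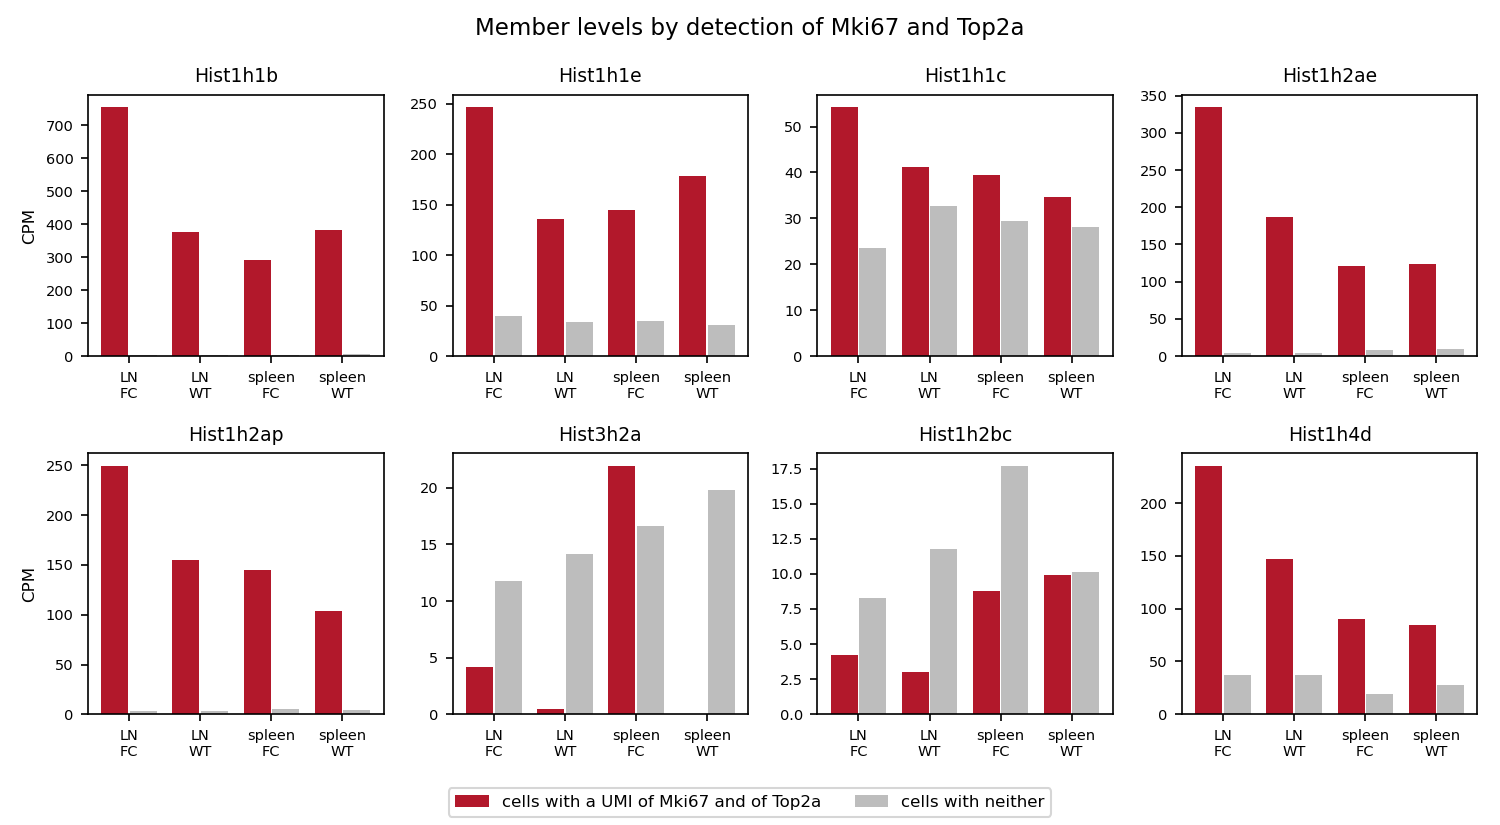
CPM of 8 members in cells with a UMI of both Mki67 and Top2a (red) and in cells with neither (grey), by library; the y axes start at 0 and differ between panels. Red bars exceed grey bars in all 4 libraries for Hist1h1b, Hist1h1e, Hist1h1c, Hist1h2ae, Hist1h2ap and Hist1h4d, and the spleen bars rest on 30 and 18 cells. For Hist1h1c the counting interval of the ratio spans equality in LN WT, spleen FC and spleen WT.

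Members were also compared between G2M and S cells of the LN. A score above 0.1 was reached by 36.1% and 37.9% of S cells in LN FC and LN WT, against 60.9% and 52.9% of G2M cells. The S cells thus lay closer to the cut, and the part of this in the counts below was not tested. Of the 37 that passed the filter, 32 were higher in G2M and 0 lower (limma, adjusted p under 0.05), against 10.7% and 11.8% of all genes. Of the 21 with a mean of at least 2 CPM over the G1 sums, 16 were higher and 0 lower. With cells thinned to 2000 UMIs 13 of 36 tested members were higher and 1 lower, against 490 and 673 of 9747 genes. Without shared barcodes the counts were 32 and 0. Hist1h3c differed by 3.38, Hist1h2ap and Hist1h2ae by 3.23 each and Hist1h1b by 2.69 on the log2 scale. Hist1h3a, at 0.76 with an adjusted p of 0.079, Hist1h2ac, Hist3h2a, Hist4h4 and Hist1h2bc were not called, and Hist3h2ba was, at 1.13 ± 0.24. Of 15 replication genes, 15 were higher in S than in G1 in the LN, yet in G2M against S 1 was higher and 2 were lower. Mcm3, a subunit of the replicative helicase, was at 17.2, 222 and 148.8 CPM across G1, S and G2M in LN FC and at 16.2, 221 and 101 CPM in LN WT.

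Genes that handle histone mRNA and protein were described in the same contrasts. Slbp and Casp8ap2 of the processing list, Nasp and Chaf1b of the chaperones and Cenpa of the histone variants are in the S and G2M lists behind the phase calls, so their phase differences are no test. Of 12 tested genes for histone mRNA processing and transcription, 6 were higher in S than in G1 in the LN and 0 lower, and in G2M against S 0 were higher and 2 lower. Without Slbp and Casp8ap2 these counts were 4 and 0 of 10 in S against G1, and 0 and 1 of 10 in G2M against S. Slbp, which encodes the stem-loop binding protein, was at 50.8, 218 and 219.7 CPM across G1, S and G2M in LN FC and at 48.9, 219.7 and 179 CPM in LN WT. E2f1, a transcription factor of S phase entry, was at 0.712, 32.7 and 16.2 CPM in LN FC and at 1.48, 26.7 and 8.27 CPM in LN WT. Among 13 histone chaperones, 9 were higher and 1 lower in S than in G1 in the LN, and 1 was higher and 1 lower in G2M than in S. Without Nasp and Chaf1b, 7 of 11 were higher and 1 lower in S than in G1, and 1 was higher and 0 lower in G2M than in S. Chaf1a, a subunit of chromatin assembly factor 1, was at 36.2 CPM in S cells of LN FC against 0.712 CPM in its G1 cells. Of 9 tested genes for histone variants, which are made outside the clusters, 8 were higher in G2M than in G1 in the LN and 8 higher in G2M than in S, with 0 lower in either. Without Cenpa both counts were 7 of 8. H2afz, the gene of H2A.Z, was at 781, 1746 and 3158 CPM across G1, S and G2M in LN FC and at 609, 1490 and 2246 CPM in LN WT, and H3f3a, a gene of the replacement histone H3.3, was at 959, 1061 and 1213 CPM in LN FC and at 934, 1012 and 1183 CPM in LN WT. H2afj, at 238, 259.5 and 229 CPM in LN FC, was not called in G2M against G1.

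The size of the phase difference varied with the annotated transcript end. The classes were cut after the distances had been seen, and the values are a description. Members whose model stops within 100 bases of the stem-loop summed to 1134 CPM in G2M against 26.4 CPM in G1 of LN FC, and to 879.9 CPM against 27.8 CPM in LN WT, which is 42.9-fold and 31.6-fold. For the 15 models that end at the stop codon, which include Hist1h1b, the ratios were 197-fold and 99.4-fold. Hist1h1b made up most of the G2M UMIs of that class, and the 14 others had ratios of 53.7-fold and 30.8-fold. Where the model runs over 100 bases past the stem-loop they were 11-fold and 8.07-fold. The 8 members without the motif had the lowest ratios in the LN, 5.51-fold in LN FC and 2.68-fold in LN WT. Hist1h2bc, which was called lower in G2M in the LN, made up most of the G1 UMIs of that class in both LN libraries. In LN FC the class summed to 59.3 CPM in G2M and 10.8 CPM in G1, of which Hist1h2bc gave 3.85 and 8.10 CPM. In LN WT the sums were 41.3 and 15.4 CPM, with 6.62 and 10.9 CPM from Hist1h2bc. The lowest place of the class in LN FC thus rests on that gene. Ratios of the class without Hist1h2bc were not computed, so its place in LN WT may rest on that gene too. In spleen FC and spleen WT the ratios were 2.71-fold and 1.90-fold for models that stop within 100 bases of the motif, 6.70-fold and 3.24-fold for those that end at the stop codon, 1.85-fold and 1.47-fold for the long ones, and 1.48-fold and 1.49-fold for members without the motif. Without Hist1h1b the stop codon class was at 2.70-fold and 1.85-fold. In spleen WT the long models had the lowest ratio. Its log2 counting interval of [0.40, 0.71] lay within that of members without the motif, [-0.0029, 1.12].

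Promoters are shown for members of unlike behaviour. Each line holds the 100 bases before the annotated start on the gene's strand, from RefSeq on GRCm38.p6, with CCAAT or its reverse complement ATTGG and TATAAA in capitals. The stretches are chr13:21780626-21780725 for Hist1h1b on the minus strand, chr13:23571221-23571320 for Hist1h2ae on the minus strand, chr13:23581468-23581567 for Hist1h4d on the plus strand and chr11:58954585-58954684 for Hist3h2a on the plus strand.
Hist1h1b: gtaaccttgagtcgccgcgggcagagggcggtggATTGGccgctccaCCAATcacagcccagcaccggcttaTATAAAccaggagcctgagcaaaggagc
Hist1h2ae: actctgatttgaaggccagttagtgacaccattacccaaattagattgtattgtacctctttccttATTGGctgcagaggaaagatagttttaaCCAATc
Hist1h4d: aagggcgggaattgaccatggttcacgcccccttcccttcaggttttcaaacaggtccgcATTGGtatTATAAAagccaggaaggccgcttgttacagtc
Hist3h2a: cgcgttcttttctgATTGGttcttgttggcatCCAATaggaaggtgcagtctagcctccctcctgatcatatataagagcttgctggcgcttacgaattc

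Hist1h1b had TATAAA 28 bases before its start and CCAAT at 66 and 53 bases before it. Hist1h4d had TATAAA at 32 bases and CCAAT at 40 bases. The stretches of Hist1h2ae and Hist3h2a held CCAAT and no TATAAA. Of the 67 members, 66 were found in RefSeq and 61 had a promoter in the table, in 62 windows of 250 bases before to 50 bases after the start. On either strand, CCAAT occurred in 85.5% of the 62 windows against 37.4% of 32851 windows of all genes, TATAAA in 56.5% against 13.6%, and both in 46.8% against 5.31%. A match is a run of letters, not a site shown to be bound.

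Between the LN libraries, 8 members were higher in LN FC, Hist1h1b among them. A rule of size counted a member where either library had 5 CPM or more, the levels differed 1.5-fold or more, and the 95% counting interval was clear of equality. Of 22 members with 5 CPM, 8 were higher in LN FC and 0 lower, against 1.93% and 2.22% of all genes. All 22 had 5 CPM in LN FC, and 20 had it in LN WT. Hist1h2ab and Hist1h2af entered through LN FC alone and could only be higher there, so they are not support for the group. Hist1h1b was at 132 CPM in LN FC and 55.9 CPM in LN WT, a log2 ratio of 1.24 [1.12, 1.35]. Hist1h2ae was at 60.8 CPM in LN FC and 29.2 CPM in LN WT, or 1.06 [0.89, 1.22]. Hist1h2ap was at 44.2 and 23.1 CPM in LN FC and LN WT, Hist1h3c at 13.0 and 5.78 CPM, Hist1h2ab at 9.58 and 3.92 CPM and Hist1h2af at 5.42 and 2.13 CPM, with ratios of 1.91-fold to 2.55-fold. Hist1h1e, at 74.4 and 49.2 CPM, and Hist2h2ac, at 19.8 and 13.0 CPM, passed narrowly at 1.51-fold and 1.53-fold. Of the 8, Hist1h1b alone shared no 3′ window with another member, while 72.1% of the windows of Hist1h2af, 70.1% of those of Hist1h2ab, 35.5% of those of Hist1h3c, 21.9% of those of Hist1h2ae and 19.1% of those of Hist2h2ac occurred in other members, and all windows of Hist1h2ap and Hist1h1e did. Levels of those 7 are therefore uncertain. Hist1h4d was at 69.7 CPM in LN FC and 51.3 CPM in LN WT, and Hist1h1d at 18.2 and 12.3 CPM, both above equality but short of 1.5-fold. Hist3h2a, at 9.92 CPM in LN FC and 11.4 CPM in LN WT, spanned equality. Hist1h2bc, at 6.81 and 9.70 CPM, Hist3h2ba, at 5.94 and 8.57 CPM, and Hist1h1c, at 28.2 and 33.0 CPM, had intervals below equality. The median log2 ratio of the 22 members was 0.45, against -0.04 over all genes with 5 CPM.

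The LN difference was seen in cells called S and G2M. Among G1 cells the summed members were at 208 CPM in LN FC and 232 CPM in LN WT, a log2 ratio of -0.16 [-0.25, -0.08], and 0 members passed the rule. In S cells the log2 ratio was 0.37 [0.28, 0.45] and in G2M cells 0.42 [0.35, 0.50]. Hist1h1b had log2 ratios of -0.42 [-1.15, 0.29] in G1, 0.70 [0.53, 0.88] in S and 0.67 [0.52, 0.83] in G2M cells. Few cells carried it. A UMI of Hist1h1b was found in 124 cells of LN FC and 103 of LN WT, at least 10 UMIs in 55 and 20 cells, and 50% of its UMIs came from 15 cells of LN FC and 9 of LN WT, so the counting intervals leave out the sampling of cells. Without shared barcodes, 5 members passed, the summed log2 ratio was 0.49 in place of 0.61, and Hist1h1b was at 108 CPM in LN FC against 53.7 CPM in LN WT. Without only the smaller copies, 8 passed and the ratio was 0.61. Leaving out the deepest 5% of cells gave 0.25 with 3 members passing, and leaving out clusters 6 and 7 gave 0.65 with 10. In cells with a UMI of both Mki67 and Top2a the summed members were at 2762 CPM in LN FC and 1622 CPM in LN WT, or 0.77 [0.71, 0.83], and Mki67 itself was at 73.9 CPM in LN FC and 41.2 CPM in LN WT over all cells.

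**Figure D4:**
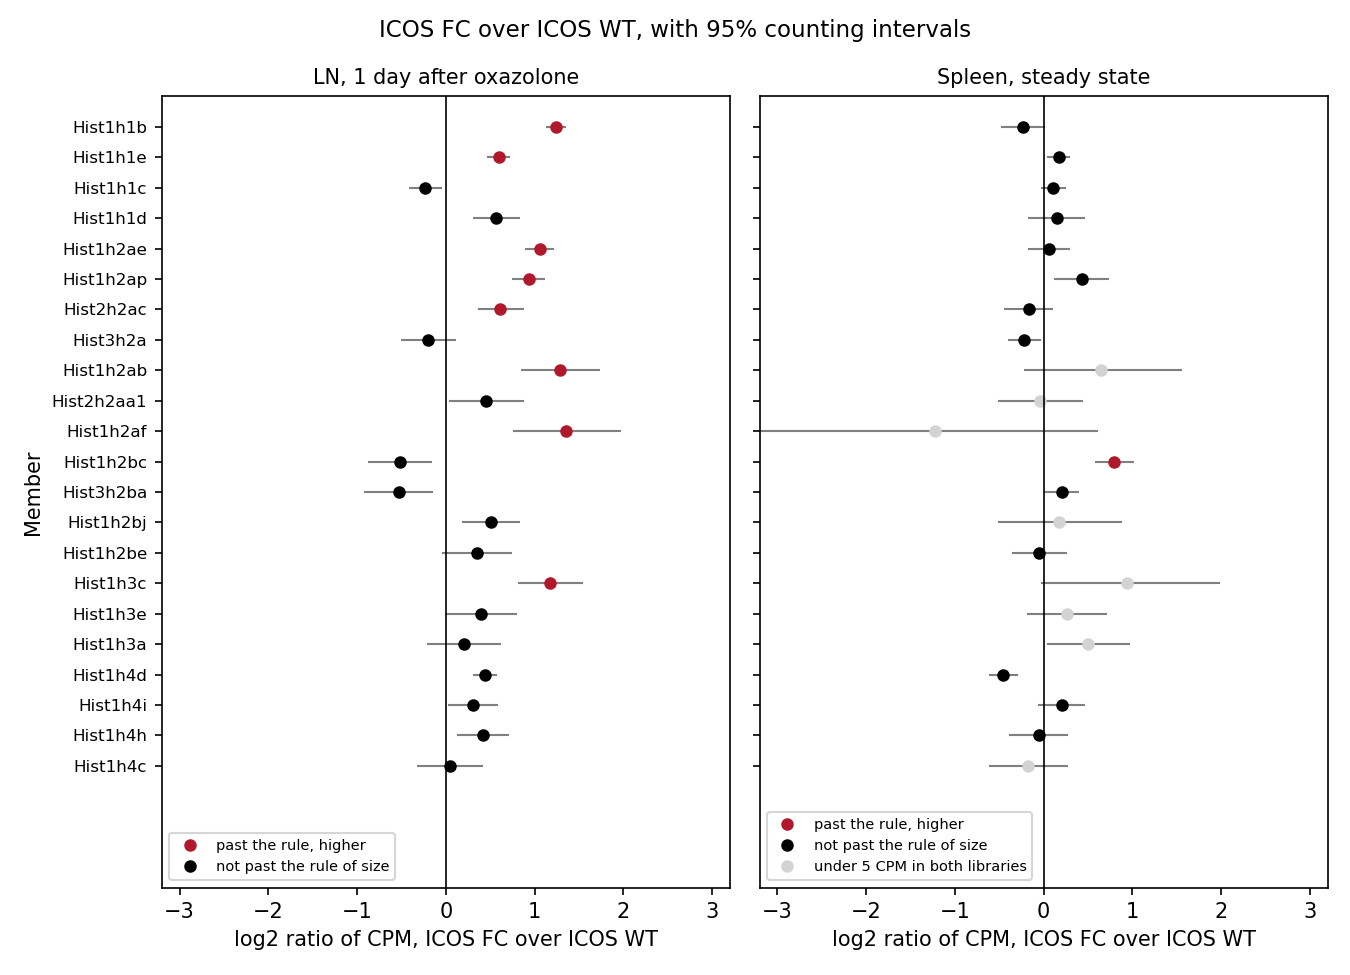
Ratio of ICOS FC to ICOS WT levels on a log2 scale, for 22 members in the LN and the spleen, with 95% counting intervals; red points passed the rule of size, black points did not and grey points were under 5 CPM in both libraries. In the LN 8 members are red and right of 0, and in the spleen 1 is, Hist1h2bc.

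Between the spleen libraries 1 member passed the rule of size. Of 14 members with 5 CPM, 1 was higher in spleen FC and 0 lower, against 1.07% and 0.559% of all genes. It was Hist1h2bc, at 17.4 CPM in spleen FC and 10.0 CPM in spleen WT, a log2 ratio of 0.80 [0.58, 1.02]. Its ratio was 0.91 [0.62, 1.19] in G1, 0.60 [0.22, 0.98] in S and 0.74 [-0.04, 1.56] in G2M cells. Hist1h4d was lower in spleen FC, at 19.9 CPM against 27.2 CPM in spleen WT, without reaching 1.5-fold. Hist1h1b was at 9.13 CPM in spleen FC and 10.7 CPM in spleen WT, Hist1h1e at 37.6 and 33.4 CPM, Hist1h1c at 30.1 and 27.9 CPM, Hist3h2a at 16.4 and 19.1 CPM, and Hist3h2ba at 16.9 and 14.6 CPM. Members at lower levels were Hist1h2ae at 10.8 CPM in spleen FC and 10.3 CPM in spleen WT, Hist1h4i at 9.48 and 8.24 CPM, Hist2h2ac at 7.40 and 8.31 CPM, Hist1h2ap at 7.33 and 5.44 CPM, Hist1h2be at 6.26 and 6.47 CPM, Hist1h1d at 6.23 and 5.63 CPM, and Hist1h4h at 5.34 and 5.55 CPM. The summed log2 ratio was 0.08 [0.03, 0.13]. Hist1h1b went opposite ways by phase, at 7.61 CPM in S cells of spleen FC against 15.9 CPM in those of spleen WT, and at 55.3 CPM in G2M cells of spleen FC against 27.5 CPM in those of spleen WT, or -1.06 [-1.48, -0.65] and 1.01 [0.48, 1.56]. A few cells carried it, 50% of its UMIs coming from 9 cells of spleen FC and 37 of spleen WT.

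Between tissues, most members above 5 CPM were higher in the LN under both labels, and more of them passed the rule of size under ICOS FC. Under ICOS FC, 17 of 22 members had a counting interval above equality and 3 below it. Under ICOS WT these counts were 16 and 2 of 20. The 2 comparisons share no library, and the rule asked for a ratio of at least 2-fold. Of 22 members, 14 were higher and 2 lower in LN FC than in spleen FC, against 7.01% and 1.07% of all genes, and of 20 members 9 were higher and 0 lower in LN WT than in spleen WT, against 6.64% and 0.676%. In LN FC 22 members had 5 CPM and in LN WT 20, against 14 in each spleen library. Members that entered through the LN alone could only be higher there. Among them were Hist1h3c, Hist1h2bj, Hist1h3e and Hist1h4c under both labels. The counts thus describe those genes and are not support for the group. Hist1h1b stood 14.4-fold higher in LN FC than in spleen FC and 5.22-fold higher in LN WT than in spleen WT. Hist1h3c, at 0.991 CPM in spleen FC and 0.515 CPM in spleen WT, was 13.2-fold and 11.2-fold higher in the LN. Hist1h2bj, at 12.3 CPM in LN FC and 8.64 CPM in LN WT against 1.42 CPM in spleen FC and 1.25 CPM in spleen WT, was 8.68-fold and 6.91-fold higher. Past the rule under both labels were also Hist1h2ae, Hist1h2ap, Hist1h1d, Hist1h3e and Hist1h4c. Hist1h2bc and Hist3h2ba were lower in LN FC than in spleen FC, with log2 ratios of -1.35 [-1.65, -1.06] and -1.51 [-1.83, -1.20]. Hist3h2a was lower in both, at -0.73 [-0.99, -0.47] and -0.75 [-1.0, -0.49], without reaching 2-fold. The summed members were 2.53-fold higher in LN FC than in spleen FC and 1.75-fold higher in LN WT than in spleen WT, or 1.34 and 0.81 on the log2 scale. Without shared barcodes those log2 ratios were 1.20 and 0.79, with cells thinned to 2000 UMIs 0.47 and 0.37, and without G2M cells 0.54 and 0.38. Without the 5% of cells with most UMIs they were 0.39 and 0.17, and 6 and 1 members then passed the rule. Among G1 cells the order turned for some members. Hist1h1b had a log2 ratio of -0.76 [-1.41, -0.14] between LN FC and spleen FC and -0.75 [-1.32, -0.21] between LN WT and spleen WT, and Hist1h2ae of -1.0 [-1.50, -0.53] and -1.02 [-1.50, -0.56]. Hist1h4d stayed higher in G1 cells of the LN, at 39.8 CPM in LN FC against 16.8 CPM in spleen FC and at 38.4 CPM in LN WT against 26.1 CPM in spleen WT. Over all genes with 5 CPM the median log2 ratio was 0.12 in the first comparison and 0.13 in the other.

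The remaining members above 5 CPM were at these levels in the 4 libraries. Hist1h4i was at 14.7 CPM in LN FC and 11.8 CPM in LN WT, and Hist1h4h at 14.0 and 10.5 CPM. Hist1h4c was at 7.96 CPM in LN FC, 7.71 CPM in LN WT, 3.01 CPM in spleen FC and 3.38 CPM in spleen WT. Hist1h3e was at 7.62, 5.78, 3.40 and 2.83 CPM in the same order of libraries, Hist2h2aa1 at 7.21, 5.25, 2.69 and 2.76 CPM, and Hist1h3a at 6.58, 5.72, 3.43 and 2.43 CPM. Hist1h2be was at 7.79 CPM in LN FC and 6.11 CPM in LN WT. Hist1h2af was at 0.142 CPM in spleen FC and 0.331 CPM in spleen WT, and Hist1h2ab at 1.1 and 0.699 CPM. Between LN FC and LN WT none of Hist1h4i, Hist1h4h, Hist1h4c, Hist1h3e, Hist2h2aa1, Hist1h3a and Hist1h2be passed the rule of size.

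Across the deposited clusters with at least 50 cells of a library, summed member levels in the LN ran from 196 CPM (cluster 5) to 1045 CPM (cluster 2) in LN FC and from 182 CPM (cluster 3) to 974 CPM (cluster 6) in LN WT. Cluster 4, the cells with most UMIs, was at 828 CPM in LN FC and 652 CPM in LN WT, and cluster 2 at 1045 CPM in LN FC against 431 CPM in LN WT. Hist1h1b was at 226 and 153 CPM in cluster 4 of LN FC and LN WT, at 202 and 50.9 CPM in cluster 2, and at 0 and 4.89 CPM in cluster 5, where no cell was called G2M. In the spleen, levels lay between 188 CPM in cluster 5 of spleen WT and 314 CPM in cluster 2 of spleen FC, except for cluster 6, which had at least 50 cells in spleen FC alone (117 cells) and stood at 532 CPM there. Clusters were formed from the same cells' expression, so these levels describe them and test nothing.

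**Figure D5:**
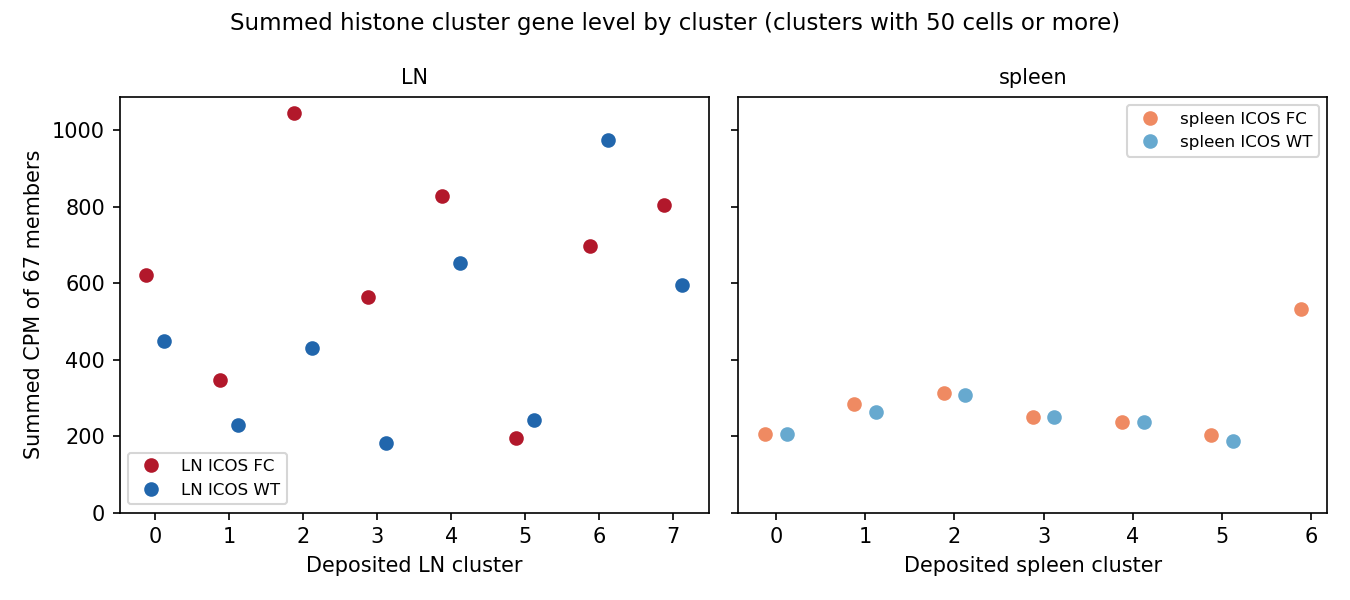
Summed CPM of the 67 members by deposited cluster, with 1 point for each library that has at least 50 cells in the cluster; the y axis starts at 0. LN points range from 182 to 1045 CPM and spleen points from 188 to 532 CPM.

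A UMI of any member was found in a similar share of cells in all libraries. After thinning each cell to 2000 UMIs the share was 35.7% [33.6, 37.8] in LN FC, 38.1% [35.8, 40.3] in LN WT, 36.4% [35.2, 37.7] in spleen FC and 35.7% [34.4, 37.1] in spleen WT, with exact binomial intervals. Thinning left out 59, 69, 155 and 89 cells. Without thinning the shares were 70.0%, 73.4%, 59.8% and 65.0%. In G2M cells the thinned share was 73.9% [61.9, 83.7] in LN FC and 58.0% [43.2, 71.8] in LN WT, against 32.9% and 37.2% in G1 cells. For Hist1h1b alone it was 46.4% of G2M cells in LN FC and 24% in LN WT, against 0.512% and 0.541% of G1 cells, and in the spleen it was 1.62% and 2.90% of G2M cells in spleen FC and spleen WT against 1.02% and 1.34% of G1 cells. The intervals of those thinned spleen shares in G2M were [0.655, 3.32] in spleen FC and [1.34, 5.44] in spleen WT. Without thinning a UMI of Hist1h1b was found in 2.64% [1.37, 4.57] of G2M against 1.93% of G1 cells in spleen FC, and in 7.23% [4.64, 10.7] against 3.11% in spleen WT. The spleen shares were not tested against each other.

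Markers of cells that the sort might let through were low or moved with the tissue. B cell markers summed to 198 CPM in LN FC, 164 CPM in LN WT, 76.4 CPM in spleen FC and 72.7 CPM in spleen WT, and myeloid markers to 162, 148, 131 and 118 CPM. Plasma cell markers summed to 103, 85.3, 46.6 and 50.4 CPM, and CD8 T and NK markers to 43.1, 53.7, 25.8 and 24.4 CPM. Erythroid markers were at 0.0577 to 1.59 CPM with 2 or 3 of 4 genes at 0, and platelet markers at 0.147 to 0.404 CPM with up to 2 of 3 at 0. B cell, myeloid, plasma cell and CD8 T and NK sums were higher in the LN, as the summed cluster members were, and their part in that difference was not tested.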

How the data were processed

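Single cells were profiled with the 10x 3′ v3.1 kit. The submitters' processing notes name Seurat 3.0, R 3.6.1 and Cell Ranger 4.0.0, with the build GRCm38.p6, and no roles or settings. The deposited expression tables hold natural log values, ln(1 + UMIs per 10000 UMIs of the cell). Deposited cell tables give total counts per cell, percent mitochondrial counts, S and G2M scores, phase and cluster. Per the file headers, cells are marked Control or KO, taken from those words alone as ICOS WT and ICOS FC. With the deposited totals, 100% of values came out as whole UMIs within 0.001. No doublet caller was run and no cell removed.

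UMIs were summed per library, phase or cluster. Ratios carry exact conditional Poisson 95% intervals. Phase was tested with limma 3.58.1 (trend on log2(CPM + 1), library block, Benjamini-Hochberg over genes with a mean of at least 2 CPM), checked on simulated data. Shares carry exact binomial intervals, and intervals and floors cover counting error only. Members that reached 5 CPM, called by limma or past a rule of size are named. The members and lists were chosen with earlier results of these data known. Alternatives covered the pseudocount, filter, scaling, block, thinning, Foxp3 cells and left-out libraries. Transcript ends came from GENCODE M21 and promoters from RefSeq.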

Additional observations from a re-analysis of the deposited data

Results flagged for a closer look

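The G2M against G1 difference was higher in the LN than in the spleen for 33 members and lower for 2, Hist3h2a and Hist1h2bc. That is by the limma test of the difference itself, against 13.9% and 16.5% of all genes. Members that passed the filter only through high LN G2M sums are in that count. Of the 21 members with a mean of at least 2 CPM over the G1 sums, 17 were higher and 2 lower. A score above 0.1 was reached by 60.9% and 52.9% of G2M cells in LN FC and LN WT. In spleen FC and spleen WT it was 3.30% and 3.77%, so G2M does not name like cells in the tissues. The test took the ICOS FC and ICOS WT libraries of a tissue as its 2 libraries, so differences between the labels serve as its error. With cells thinned to 2000 UMIs 8 were higher and 1 lower, against 177 and 225 of 9747 genes. Cells holding a Foxp3 UMI gave 25 higher and 0 lower, against 697 and 787 of 9773 genes. For S against G1 the difference was higher in the LN for 12 members, Hist1h1b at 4.10 ± 0.54 among them, and lower for 1, Hist3h2a at -1.55 ± 0.40. Of all genes, 8.73% were higher and 4.27% lower. Of the same 21 members, 6 were higher and 1 lower. The S count was 0 with thinned cells, 0 in cells with a Foxp3 UMI, 1 on cell means, 3 without spleen FC and 3 without spleen WT.

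Under the labels ICOS FC and ICOS WT, 3 members went opposite ways in the tissues, each with both counting intervals clear of equality. The log2 ratio of ICOS FC over ICOS WT for Hist3h2ba was -0.53 in the LN and 0.21 in the spleen. For Hist1h4d it was 0.44 in the LN and -0.45 in the spleen, and for Hist1h2bc -0.51 in the LN and 0.80 in the spleen. With 1 library per group the differences between tissues were not tested.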

How the results depend on the processing

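Groups could not be paired with each other because each group is 1 library and every library has replicate number 1 only. Phases were compared within each library. Without the library block, limma called 0 members in G2M against G1 in place of 20. That count was 12 with a pseudocount of 5 CPM, 3 with no filter, 11 with a filter of 10 CPM, 1 with cells thinned to 2000 UMIs, 12 in cells with a Foxp3 UMI, 5 on cell means, and 0 to 26 with 1 library left out. S against G1 had 3 calls in place of 0 with voom weights and 0 to 0 with 1 library left out.

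The fits by tissue were chosen after seeing the data. Calls in both directions for LN G2M against G1 (35) were 17 with a filter of 10 CPM and 20 thinned; for LN G2M against S (32), 16 and 14; for LN S against G1 (25), 13, 1, 7 in Foxp3 cells and 4 on cell means; for the tissue difference in G2M (35), 17, 9 thinned and 21 on cell means; for that in S (13), 25 with voom, 0 thinned, 0 in Foxp3 cells, 1 on cell means and 3 to 10 with 1 library left out. Spleen G2M calls (7) were 1 with no filter, 16 with voom, 0 thinned, 0 in Foxp3 cells, 1 on cell means and 0 to 7 with 1 library left out; spleen S had 1 with voom.

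Members past the rule between LN FC and LN WT (8) numbered 4 at 20 CPM, 13 at 1 CPM, 0 in G1 cells, 4 thinned, 3 without the 5% of cells with most UMIs, 3 without G2M cells and 5 without shared barcodes. Between spleen FC and spleen WT (1) they numbered 0, 3, 2 in G1 cells, 3 with phases weighted equally, 2 without the top 5%, 5 in Foxp3 cells and 2 without G2M cells. Between LN FC and spleen FC (16) they numbered 4, 29, 6, 32, 9 thinned, 6 without the top 5% and 7 without G2M cells. Between LN WT and spleen WT (9) they numbered 3, 20, 2, 28, 3, 1, 14 in Foxp3 cells and 3 without G2M cells.

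The summed log2 ratio between LN FC and LN WT (0.61) was -0.16 in G1 cells, 0.67 with median-of-ratios factors, 0.39 with phases weighted equally, 0.18 thinned, 0.67 under 5% mitochondrial counts, 0.25 without the top 5%, 0.68 in Foxp3 cells, 0.65 without clusters 6 and 7, 0.18 without G2M cells and 0.49 without shared barcodes. Between LN FC and spleen FC (1.34) it was -0.17 in G1 cells, 1.22, 2.42, 0.47, 1.45, 0.39, 1.46, 0.54 without G2M cells and 1.20 without shared barcodes, in the same order. Between LN WT and spleen WT (0.81) it was 0.051 in G1 cells, 0.66, 2.25, 0.37, 0.17 without the top 5%, 1.11 in Foxp3 cells, 0.75 without clusters 6 and 7 and 0.38 without G2M cells. Between spleen FC and spleen WT (0.08) it was 0.22 with phases weighted equally, 0.33 in Foxp3 cells and 0.019 without G2M cells.

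In G1 cells alone the sign turned between LN FC and LN WT for Hist1h1b (-0.42), Hist2h2ac (-0.32) and Hist1h2ae (-0.11), and without G2M cells for Hist1h3c (-0.15). In G1 cells it turned between LN FC and spleen FC for Hist1h1b (-0.76), Hist1h2ap (-1.11), Hist1h2ae (-1.0), Hist1h2ab (-0.58), Hist2h2ac (-0.12), Hist1h1d (-0.076) and Hist1h3e (-0.031), and between LN WT and spleen WT for Hist1h1b (-0.75), Hist1h2ap (-0.90), Hist1h2ae (-1.02) and Hist1h3c (-0.82), with Hist1h2ae at -0.15 also without the top 5%. The cause was not tested. Shares of cells with a member UMI in LN FC, LN WT, spleen FC and spleen WT were 70.0%, 73.4%, 59.8% and 65.0% unthinned and 20.2%, 22.5%, 20.7% and 20.9% at 1000 UMIs. Depth limits members under 1 CPM, and 1 library per group leaves differences between genotypes and tissues without a replicate check.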
